A study of Homo sapiens with 4 samples.

Results

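The genes described here are 36 genes of DNA repair and of the DNA damage checkpoint, taken by symbol from a count table of 20348 genes. All 36 were found in the table by Ensembl identifier. RNA was sequenced from K562, an established human cell line of chronic myeloid leukemia origin, and from THP-1, an established line of acute monocytic leukemia origin. Each line was kept for 72 h in DMSO, the solvent, or in 100 nM periplocin, a cardiac glycoside extracted from Cortex periplocae. The 4 groups are thus K562 DMSO, K562 periplocin, THP-1 DMSO and THP-1 periplocin, with 1 library each. The sample titles call the controls blank and the library names call them DMSO. No value below has a replicate check, and each comparison within a line is between a pair of libraries, not between conditions.

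DNA double-strand breaks are repaired mainly by homologous recombination, which copies the sister chromatid during S and G2 phase, or by end joining, which seals the ends in any phase. The Fanconi anemia proteins unhook crosslinks between the strands, mismatch repair removes copying errors, and PARP1 and XRCC1 act on single-strand breaks. ATM and ATR are the kinases that sense breaks and stalled forks, and they pass the signal to CHEK2 and CHEK1, which hold the cell cycle. Many of these genes are transcribed at higher levels in dividing cells.

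Library totals were between 16381149 and 20622694 counts, and the 36 genes together held 86191 counts with DMSO and 87332 with periplocin in K562, and 113960 and 73548 in THP-1. All 36 had at least 113 counts in every library and passed the filter of a mean CPM (counts-per-million) of 1 in each comparison. The 7 erythroid line markers summed to 1805 CPM with DMSO and 7902 with periplocin in K562, and to 10.6 and 8.51 in THP-1, with GATA1 and HBE1 at 3 counts or fewer in both THP-1 libraries. The 8 monocytic markers summed to 973 and 971 CPM in the THP-1 libraries and to 88.7 and 87.6 in those of K562, where MPO and CSF1R were at 3 counts or fewer. Both lines therefore carried their labelled markers. All 7 erythroid markers were higher past 1.5-fold in K562 periplocin. The even monocytic sum in THP-1 held members that moved apart, with CD14 at 8 counts with DMSO and 382 with periplocin (log2 ratio 5.78), ITGAM at 572 and 1063 (1.12) and MPO at 43 and 14 (-1.38). In K562 the sum was as even, with CD14 at 1 and 69 counts, ITGAM at 33 and 75 and CD33 at 362 and 127. In bulk RNA, fewer cells of a type and less RNA per cell cannot be told apart.

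A gene is called higher or lower here when its periplocin level differed from its DMSO level by at least 1.5-fold, a log2 ratio of 0.585, and the 95% counting interval of the ratio left out 0. In K562, 6 of the 36 genes were higher and 6 lower, which is 33.3% of them, while 40.0% of all 11862 genes measured passed the same rule. By direction, 18.5% of all genes were higher and 21.5% lower, against 16.7% of the 36 in each direction. In THP-1, 2 genes were higher and 13 lower, or 41.7% of the 36, while 37.6% of all 12341 genes passed. By direction, 20.8% of all genes were lower in THP-1 and 16.8% higher, whereas 36.1% of the 36 were lower and 5.56% higher. The share of called genes was thus near the background in both lines, and in THP-1 most of the called repair genes were lower. The median log2 ratio of the 36 was -0.13 in K562 and -0.40 in THP-1, beside -0.01 and -0.02 over all genes measured. Past 2-fold, 1 gene (ATM) was higher and 3 (RAD51D, BRCA1 and FANCF) lower in K562, against 8.83% and 11.5% of all genes, or 20.4% in both directions. In THP-1, 2 genes (RAD51D and PALB2) were lower and 0 higher past 2-fold, against 10.5% and 8.03% of all genes, or 18.5% in both directions.

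Changes of any size beyond counting error were common in both lines. In K562, 9 of the 36 genes were higher and 20 lower by this measure, while 38.2% of all genes were higher and 39.3% lower, or 77.4% in both directions. In THP-1, 4 of the 36 were higher and 28 lower, while 37.5% of all genes were higher and 39.3% lower, or 76.8% in both directions. The 15 genes that passed 1.5-fold in neither line had log2 ratios between -0.48 and 0.26 in K562 and between -0.56 and 0.28 in THP-1. Ratios are of counts scaled by library size, so a gene such as MDC1 can have fewer counts and a ratio above 0 in the shallower library. The calls rest on counting error alone, and with an assumed dispersion of 0.16 between replicates 2 of the 36 genes would pass 1.5-fold in K562 and 0 in THP-1. With total counts in place of TMM scaling, 4 genes instead of 2 were lower past 2-fold in THP-1. The shares of all genes under these alternatives are not given here, so these counts cannot be read as particular to the 36 genes.

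**Figure D1:**
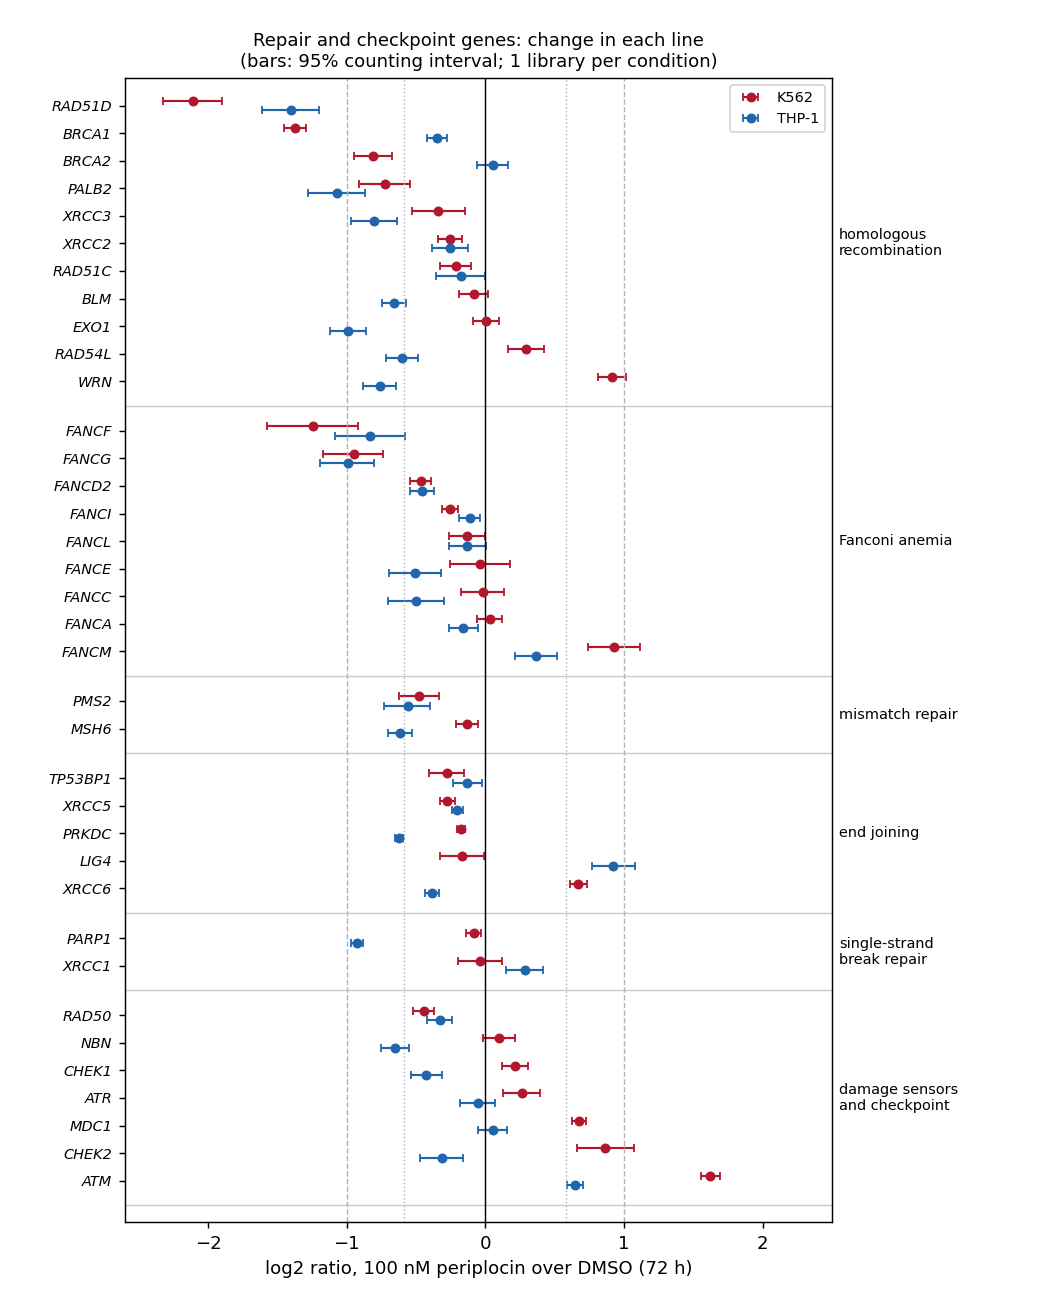
Log2 ratio of periplocin over DMSO (horizontal axis) for each of the 36 genes, grouped by pathway, in K562 (red) and THP-1 (blue); bars are 95% counting intervals from 1 library per condition, dotted lines mark 1.5-fold and dashed lines 2-fold. RAD51D lies farthest to the left in both lines, at -2.11 and -1.40, and ATM farthest to the right in K562, at 1.62.

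Among the 11 genes of homologous recombination, RAD51D was the lowest after periplocin in both lines. It encodes a subunit of the BCDX2 complex, which acts early in strand exchange. In K562 it had 966 counts with DMSO and 228 with periplocin, and in THP-1 it had 804 and 259. Both periplocin libraries were below both DMSO libraries. The log2 ratio was -2.11 in K562 (95% counting interval -2.32 to -1.90) and -1.40 in THP-1 (-1.61 to -1.20), so that 23.2% and 37.8% of the DMSO level remained.

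BRCA1, the ubiquitin ligase that promotes end resection and recruits PALB2, went from 4553 to 1793 counts in K562 and, in THP-1, from 4080 to 2733. The log2 ratio was -1.37 in K562 (-1.45 to -1.29) and -0.35 in THP-1 (-0.42 to -0.28), and only the former passed 1.5-fold. BRCA2, which acts at resected ends downstream of PALB2, had 1182 and 688 counts in K562 (-0.81) and 1328 and 1174 in THP-1 (0.05, with a counting interval of -0.06 to 0.17). BRCA2 was thus lower past 1.5-fold in K562, and within counting error in THP-1. PALB2, the bridge between BRCA1 and BRCA2, was lower in both, from 651 to 401 counts in K562 (-0.73) and, in THP-1, from 671 to 272 (-1.07).

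Of the genes related to RAD51D, XRCC3 had 513 and 413 counts in K562 (-0.34) and was lower in THP-1, from 929 to 454 (-0.80). RAD51C and XRCC2 did not pass 1.5-fold in either line, with K562 log2 ratios of -0.21 and -0.25 and THP-1 log2 ratios of -0.18 and -0.26. RAD51D thus changed more than XRCC2 and RAD51C, with which its protein forms a complex, by margins beyond their counting intervals.

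WRN, a RecQ helicase with an exonuclease, was higher in K562, from 1214 to 2328 counts, and lower in THP-1, from 1704 to 856. Its log2 ratios were 0.91 (0.81 to 1.01) and -0.76 (-0.88 to -0.64), and it was the only one of the 36 to pass 1.5-fold in opposite directions, as 427 of all 10779 genes measured in both lines did. EXO1, the exonuclease of end resection and of mismatch repair, had 1894 and 1933 counts in K562 (0.00) and 1575 and 676 in THP-1 (-0.99). BLM, another RecQ helicase, had 1543 and 1482 counts in K562 (-0.08) and 3173 and 1714 in THP-1 (-0.66). RAD54L, a motor protein that remodels recombination intermediates, had 884 and 1105 counts in K562 (0.30) and 1706 and 961 in THP-1 (-0.60). EXO1, BLM and RAD54L were therefore lower past 1.5-fold in THP-1 and not in K562. Their log2 ratios differed between the lines by 0.99, 0.57 and 0.89, which was not tested. Of the 36 genes, 9 passed 1.5-fold in THP-1 only, in either direction, as did 1903 of all 10779 genes measured in both lines. Of the 11 genes, 1 was higher and 4 lower in K562 (median log2 ratio -0.25), where 18.5% of all genes were higher and 21.5% lower. In THP-1, 7 of the 11 were lower (median -0.66) and 0 higher, where 20.8% of all genes were lower and 16.8% higher. The class was chosen with earlier results known, and these shares are a description.

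Of the 9 Fanconi anemia genes, FANCF and FANCG were lower in both lines, and no other was called lower in either. This count of 2 of 9 is near the share of all genes lower, 21.5% in K562 and 20.8% in THP-1. In K562, 1 of the 9 was higher, and in THP-1 0, beside 18.5% and 16.8% of all genes. FANCF and FANCG encode subunits of the core complex, the ligase assembly that ubiquitinates FANCD2 and FANCI at a crosslink. FANCF had 263 counts with DMSO and 113 with periplocin in K562, and 407 and 195 in THP-1, with log2 ratios of -1.24 (-1.58 to -0.92) and -0.83 (-1.08 to -0.58). FANCG had 514, 271, 724 and 310 counts in the same order, with log2 ratios of -0.95 (-1.17 to -0.73) and -0.99 (-1.19 to -0.80). For each of these genes both periplocin libraries were below both DMSO libraries.

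The core complex genes FANCA, FANCC, FANCE and FANCL moved less than these. In that order, with FANCL the catalytic ligase subunit, they had K562 log2 ratios of 0.03, -0.02, -0.04 and -0.13 and THP-1 log2 ratios of -0.16, -0.50, -0.51 and -0.13. FANCM, the DNA translocase that anchors the complex on chromatin, was higher in K562, from 360 to 697 counts (0.93, interval 0.74 to 1.11), and went from 686 to 752 in THP-1 (0.36). FANCD2, the ubiquitinated substrate, had 3195 and 2356 counts in K562 and 2902 and 1804 in THP-1, with nearly equal log2 ratios of -0.47 and -0.46 that missed 1.5-fold. Its partner FANCI had log2 ratios of -0.25 and -0.11. The median over the 9 genes was -0.13 in K562 and -0.46 in THP-1.

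ATM, RAD51D, FANCF, FANCG and PALB2 were the 5 genes that passed 1.5-fold in the same direction in both lines, ATM higher and the other 4 lower. Over all 10779 genes measured in both lines, 560 were higher in both by this rule and 851 lower. The plot of CPM by library shows these 5 beside BRCA1, WRN and LIG4.

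**Figure D2:**
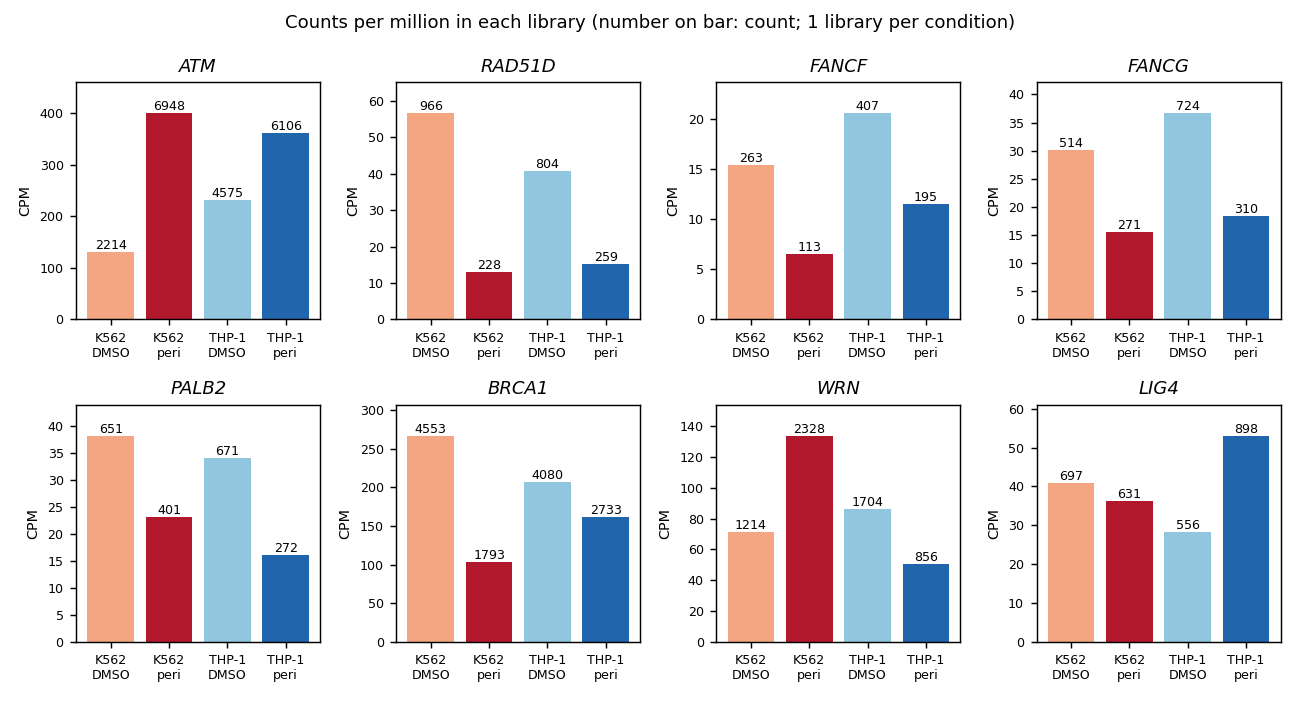
CPM (vertical axes, each from 0) of 8 genes in the 4 libraries, where peri stands for 100 nM periplocin and the number on each bar is its count; with 1 library per condition there is no error bar. ATM was higher and RAD51D, FANCF, FANCG and PALB2 lower with periplocin in both lines, while WRN went from 71.1 to 134 CPM in K562 and, in THP-1, from 86.2 to 50.6.

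The promoter windows of these 5 genes are shown to let their sequence be compared, since they moved alike in both lines. They are RefSeq windows on GRCh38.p14 that run from 250 bases before to 50 bases after a transcription start, and capitals mark matches to CCAAT or to TTTGAA or TTCGAA, the cell cycle homology region (CHR) motifs, on either strand. ATM and RAD51D each have another overlapping window in RefSeq that is not printed.
ATM, chr11:108222817-108223116, plus strand: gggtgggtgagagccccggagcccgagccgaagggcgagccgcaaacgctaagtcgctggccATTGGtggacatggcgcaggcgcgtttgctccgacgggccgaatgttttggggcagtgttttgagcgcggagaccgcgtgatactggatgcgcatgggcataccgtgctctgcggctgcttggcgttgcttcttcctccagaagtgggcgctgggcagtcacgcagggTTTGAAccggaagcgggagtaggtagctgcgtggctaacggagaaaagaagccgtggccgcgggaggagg
RAD51D, chr17:35119811-35120110, minus strand: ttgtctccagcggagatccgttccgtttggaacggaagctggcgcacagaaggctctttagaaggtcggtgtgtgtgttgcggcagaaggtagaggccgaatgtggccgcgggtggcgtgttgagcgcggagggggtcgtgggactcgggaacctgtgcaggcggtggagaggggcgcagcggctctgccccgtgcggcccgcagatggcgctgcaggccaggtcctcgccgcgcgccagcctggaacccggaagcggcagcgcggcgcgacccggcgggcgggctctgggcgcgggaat
FANCF, chr11:22625774-22626073, minus strand: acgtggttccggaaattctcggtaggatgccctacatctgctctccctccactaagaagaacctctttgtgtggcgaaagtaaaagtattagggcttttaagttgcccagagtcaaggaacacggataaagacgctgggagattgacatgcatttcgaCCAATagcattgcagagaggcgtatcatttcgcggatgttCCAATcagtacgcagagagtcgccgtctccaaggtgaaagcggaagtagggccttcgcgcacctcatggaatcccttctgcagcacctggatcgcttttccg
FANCG, chr9:35079893-35080192, minus strand: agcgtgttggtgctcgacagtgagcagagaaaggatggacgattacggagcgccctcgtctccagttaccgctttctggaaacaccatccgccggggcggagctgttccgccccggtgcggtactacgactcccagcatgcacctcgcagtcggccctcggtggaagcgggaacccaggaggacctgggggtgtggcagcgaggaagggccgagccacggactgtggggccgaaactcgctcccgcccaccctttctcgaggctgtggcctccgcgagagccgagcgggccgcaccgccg
PALB2, chr16:23641261-23641560, minus strand: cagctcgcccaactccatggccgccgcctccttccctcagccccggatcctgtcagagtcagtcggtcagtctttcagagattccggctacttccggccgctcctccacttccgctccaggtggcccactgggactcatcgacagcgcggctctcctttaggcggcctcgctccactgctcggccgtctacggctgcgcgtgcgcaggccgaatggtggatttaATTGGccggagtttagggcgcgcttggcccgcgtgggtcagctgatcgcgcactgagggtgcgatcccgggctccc

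No motif that was searched was present in all 5. In the windows printed, ATM held CCAAT on the minus strand and TTTGAA 20 bases before the start, FANCF held CCAAT at 92 and 52 bases before it, and PALB2 held CCAAT on the minus strand 26 bases before it. In the FANCG window and in both RAD51D windows none of the letters searched were found. Windows were found for 31 of the 36 genes, and 18 of these 31 (58.1%) held CCAAT, compared with 34.6% of 34796 RefSeq promoter windows of the same length. CHR motifs were in 4 of the 31 (12.9%), compared with 16.4% of all windows. A gene counts here when any of its windows holds a match, while the shares of all windows count single windows, so they are not like for like. All shares are descriptions.

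E2F factors drive genes of the G1 to S transition, and 3 E2F-type sequences, TTTGGCGC, TTTCGCGC and TTTCCCGC, were searched on both strands. They were in 6 of the 31 genes (19.4%), counting any window of a gene, and in 2.73% of all single windows. These shares are not like for like, since some of the 31 genes have several windows. No matches in the windows of the 31 genes overlapped. A stretch of 31 bases with each match is given, with the match in capitals, because these 6 genes hold every E2F-type match found among the 31. The XRCC6 match stands at the end of its stretch, where the window ends. In EXO1, MSH6, XRCC2 and XRCC6 the match begins after the transcription start.
EXO1, chr1:241848197-241848227, plus strand: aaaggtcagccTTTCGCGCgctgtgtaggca
FANCC, chr9:95317862-95317892, minus strand: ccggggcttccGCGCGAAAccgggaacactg
FANCC, chr9:95317736-95317766, minus strand: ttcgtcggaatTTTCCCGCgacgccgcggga
FANCD2, chr3:10026424-10026454, plus strand: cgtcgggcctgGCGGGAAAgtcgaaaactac
MSH6, chr2:47783137-47783167, plus strand: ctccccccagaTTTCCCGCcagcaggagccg
XRCC2, chr7:152676101-152676131, minus strand: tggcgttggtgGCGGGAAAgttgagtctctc
XRCC6, chr22:41621314-41621344, plus strand: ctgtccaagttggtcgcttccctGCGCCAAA

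The 6 genes with these matches did not respond alike. In K562 their log2 ratios were 0.00 for EXO1, -0.02 for FANCC, -0.47 for FANCD2, -0.13 for MSH6, -0.25 for XRCC2 and 0.67 for XRCC6. In THP-1 all 6 were below 0, and EXO1 at -0.99 and MSH6 at -0.61 passed 1.5-fold. Of all 36 genes, 30 were below 0 in THP-1 and 13 were lower past 1.5-fold, while 20.8% of all genes measured were lower. The 36 include these 6 genes, and whether genes with a match differ from the others was not tested.

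In mismatch repair, MSH6 takes part in recognizing the mispair, and PMS2 is the endonuclease that nicks the new strand. MSH6 had 2647 and 2458 counts in K562 (-0.13) and was lower in THP-1, from 3114 to 1735 (-0.61). PMS2 did not pass 1.5-fold, with log2 ratios of -0.48 in K562 and -0.56 in THP-1. PMS2 has near-identical pseudogene copies, as do CHEK2, FANCD2 and in part BRCA1, so the division of reads between copies is uncertain for these genes.

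In end joining, XRCC5 and XRCC6 encode the Ku heterodimer that binds broken ends, PRKDC the kinase DNA-PKcs that Ku recruits, and LIG4 the ligase that closes the break. XRCC6 had 3478 and 5643 counts in K562 (0.67, interval 0.61 to 0.73) and 8758 and 5723 in THP-1 (-0.38), while XRCC5 had log2 ratios of -0.27 and -0.20. The mRNAs of the Ku subunits thus moved apart in K562. PRKDC, which had the highest counts of the 36, went from 27132 to 15000 in THP-1 (-0.62) and from 19644 to 17707 in K562 (-0.18). LIG4 was higher in THP-1, from 556 to 898 counts (0.92, interval 0.77 to 1.08), and had 697 and 631 counts in K562 (-0.17). TP53BP1, which protects ends from resection, did not pass 1.5-fold, at -0.28 and -0.13.

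In single-strand break repair, PARP1, which marks the break with poly(ADP-ribose), was lower in THP-1, from 14400 to 6461 counts (-0.93, interval -0.97 to -0.88), leaving 52.6% of the DMSO level. In K562 it had 6260 and 6012 counts (-0.08). XRCC1, the scaffold that assembles the repair enzymes, did not pass 1.5-fold and had log2 ratios of -0.04 in K562 and 0.28 in THP-1.

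Among the 7 damage sensors and checkpoint genes, ATM was higher in both lines. ATM is the kinase that responds to double-strand breaks, and its gene lies at chr11:108222484-108369102 on GRCh38, on the plus strand, with 63 exons in the ATM-201 transcript. It had 2214 counts with DMSO and 6948 with periplocin in K562, and 4575 and 6106 in THP-1. The log2 ratio was 1.62 in K562 (1.55 to 1.69), which is 308% of the DMSO level, and 0.65 in THP-1 (0.59 to 0.70), or 157%. Both periplocin libraries were above both DMSO libraries in CPM, at 400 and 361 against 130 and 232. CHEK2, the kinase that ATM activates, was higher in K562, from 307 to 570 counts (0.87, interval 0.66 to 1.07), and had 867 and 594 counts in THP-1 (-0.32).

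ATR and CHEK1, the other sensor and effector kinase pair, did not pass 1.5-fold. ATR had 835 and 1020 counts in K562 (0.26) and 1183 and 970 in THP-1 (-0.06, within counting error). CHEK1 had 1712 and 2022 counts in K562 (0.21) and 1696 and 1077 in THP-1 (-0.42). MDC1, the adaptor that binds phosphorylated H2AX, was higher in K562, from 5010 to 8150 counts (0.68), and had 1606 and 1421 in THP-1 (0.05). NBN and RAD50, members of the MRN complex that recruits ATM, had K562 log2 ratios of 0.10 and -0.44 and THP-1 log2 ratios of -0.65 and -0.33, and NBN passed 1.5-fold in THP-1, from 2324 to 1261 counts. In K562 this was the only pathway class of the 6 with a median above 0, at 0.26, while its median in THP-1 was -0.32.

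The responses of the lines were then set against each other. Of the 36 genes, 3 had log2 ratios above 0 in both lines, 21 below 0 in both, 9 above 0 in K562 and below 0 in THP-1, and 3 the reverse, so that 66.7% had the same sign, against 61.7% of all genes. Of all 10779 genes, 3191 were above 0 in both lines and 3456 below 0 in both. Across the 36 genes the log2 ratios of the lines correlated with a Pearson r of 0.483 and a Spearman rho of 0.314, and across all 10779 genes with an r of 0.273 and a rho of 0.312. These are correlations across genes, which are not independent replicates, and no p is given. The difference between the lines, K562 minus THP-1 on the log2 scale, was at least 1 in size for 5 of the 36 genes, while 20.6% of all genes passed that rule. It was 1.68 for WRN (counting interval 1.52 to 1.83), 1.18 for CHEK2 (0.93 to 1.43), 1.06 for XRCC6 (0.98 to 1.13), -1.02 for BRCA1 (-1.13 to -0.92) and -1.09 for LIG4 (-1.31 to -0.87). With 4 libraries in 4 groups, this difference could not be tested.

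**Figure D3:**
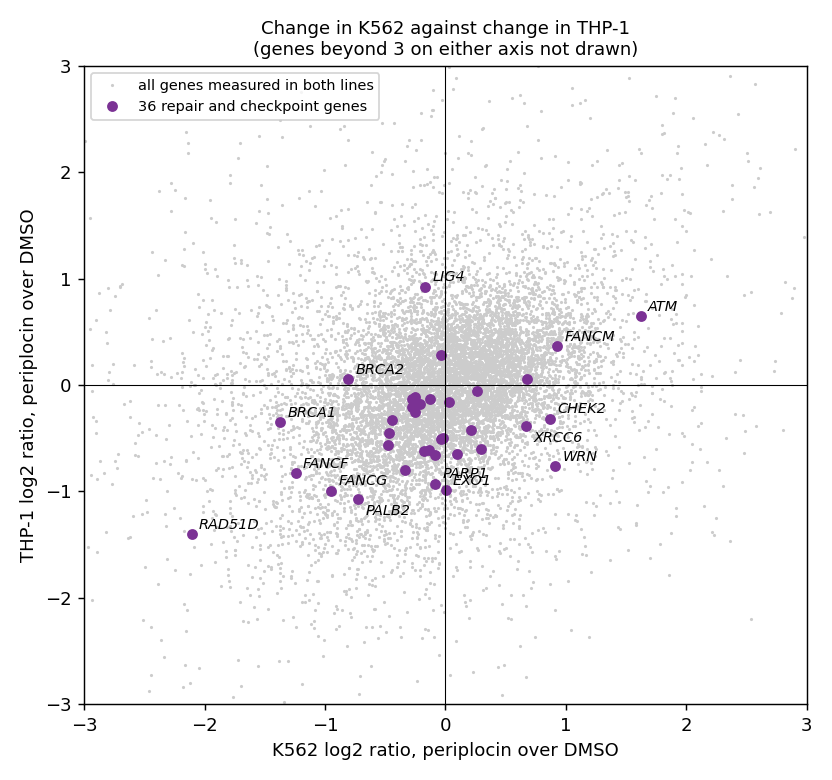
Log2 ratio of periplocin over DMSO in K562 (horizontal axis) against THP-1 (vertical axis) for the 36 genes (purple) and all genes measured in both lines (grey, 10779 genes, those beyond 3 on either axis not drawn). RAD51D, FANCF, FANCG and PALB2 lie at the lower left, ATM at the upper right and WRN at the lower right.

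A fit of all 4 libraries with line and treatment as terms estimates its error from how far the 2 lines differ, with 1 residual degree of freedom. In this fit, by edgeR's quasi-likelihood test with Benjamini-Hochberg adjustment, 0 of 13584 genes had an adjusted p under 0.05 (background 0.0%), and 1535 (11.3%) had an unadjusted p under 0.05. Of the 36 genes, 6 (16.7%) had an unadjusted p under 0.05. These were RAD51D, ATM, FANCG, PALB2, FANCF and BRCA1. The lowest adjusted p among the 36 was 0.359, for RAD51D, with a log2 fold change of -1.75 over both lines. DESeq2 with the same terms gave 125 genes with an adjusted p under 0.05 (1.06% of those with an adjusted p), among them 1 of the 36, RAD51D, with an adjusted p of 0.0436. ATM had a log2 fold change of 1.14 in the quasi-likelihood fit, with an adjusted p of 0.376 there and of 0.126 by DESeq2.

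Levels in DMSO were compared per length, as CPM per kilobase of the transcript with the longest coding sequence in GENCODE release 29. In K562 the order ran from FANCM at 2.97 to XRCC5 at 93.7 CPM per kilobase, with PARP1 at 92.7, PRKDC at 85.2 and XRCC6 at 75.2 next to the top. In THP-1 it ran from FANCM at 4.88 to PARP1 at 184, with XRCC6 at 164, XRCC5 at 161 and PRKDC at 102 next. The same 4 genes, the Ku subunits, DNA-PKcs and PARP1, thus led in both lines. ATM stood at 9.87 in K562 DMSO and 17.6 in THP-1 DMSO, and at 30.4 and 27.5 with periplocin. The median of the 36 was 18.4 in K562 DMSO and 17.1 in THP-1 DMSO. With 1 library per group the spread of a level is unknown, so whether neighbours in this order differ was not tested.

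Between the DMSO libraries, 10 of the 36 genes were at least 1.5-fold higher in THP-1 and 4 lower, or 38.9%, while of all 12849 genes 31.4% were higher and 29.9% lower, or 61.3%. CHEK2 had 18.0 CPM in K562 and 43.9 in THP-1 (log2 ratio 1.29), XRCC6 204 and 443 (1.12) and PARP1 367 and 729 (0.99). MDC1 was lower in THP-1, at 294 CPM in K562 and 81.3 in THP-1 (-1.85), as were RAD51C (-1.29), XRCC2 (-1.14) and FANCI (-0.74). Line and library cannot be told apart in this comparison. With total counts in place of TMM scaling, the median of all genes moved by -0.12, and 10 of the 36 genes instead of 4 were lower in THP-1. The share of all genes lower with total counts is not given here.

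A further 112 repair and checkpoint genes were listed to set the 36 among their pathways. Of them, 16 had higher and 25 lower levels in K562 past 1.5-fold (36.6%, background 40.0%), with a median log2 ratio of -0.10. In THP-1, 5 were higher and 37 lower (37.5%, background 37.6%), with a median of -0.34. By direction, 18.5% of all genes were higher and 21.5% lower in K562, and 16.8% and 20.8% in THP-1, and the counts of each list that follow are descriptions to be set beside these shares. Of the 21 other recombination genes, 5 were lower and 1 higher in K562, and 11 were lower and 1 higher in THP-1. HELQ, a helicase named after its values were seen, was the higher one in both lines. The lower ones included RAD51B, a further subunit of the BCDX2 complex, from 142 to 57 counts in K562 (-1.34) and, in THP-1, from 84 to 9 (-2.98). SFR1, an accessory factor of recombination, went from 167 to 57 counts in K562 (-1.58) and, in THP-1, from 165 to 64 (-1.13). Of the 10 other Fanconi genes, 2 were lower and 1 higher in K562, and 3 were lower in THP-1. CENPS and FAAP100, which encode parts of the core complex machinery, were lower in both lines. CENPS had log2 ratios of -2.49 and -1.71 and FAAP100 of -1.51 and -1.75 in K562 and THP-1.

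The shares of all genes given above, 18.5% higher and 21.5% lower in K562 and 16.8% and 20.8% in THP-1, apply to the next lists too. Of the 5 other mismatch repair genes, 4 were lower in THP-1 and 1 in K562, and PMS1 was lower in both (-0.65 in K562 and -1.05 in THP-1). Base excision repair had 4 of 17 genes lower and 3 higher in K562, and 7 lower and 2 higher in THP-1, where UNG, the uracil glycosylase, went from 1366 to 346 counts (-1.75). Nucleotide excision repair had 5 of 20 genes lower and 2 higher in K562 and 7 lower in THP-1, with GTF2H3, a TFIIH subunit, at -1.08 and -1.51. Of 14 other end joining genes, 6 were lower and 4 higher in K562, and 3 were lower and 1 higher in THP-1. Of the 6 translesion synthesis genes, 1 was lower and 2 higher in K562 and none passed 1.5-fold in THP-1. The 19 other checkpoint genes had 3 higher and 1 lower in K562 and 1 higher and 2 lower in THP-1, with HUS1, part of the clamp that activates ATR, from 117 to 408 counts in K562 (1.77).

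**Figure D4:**
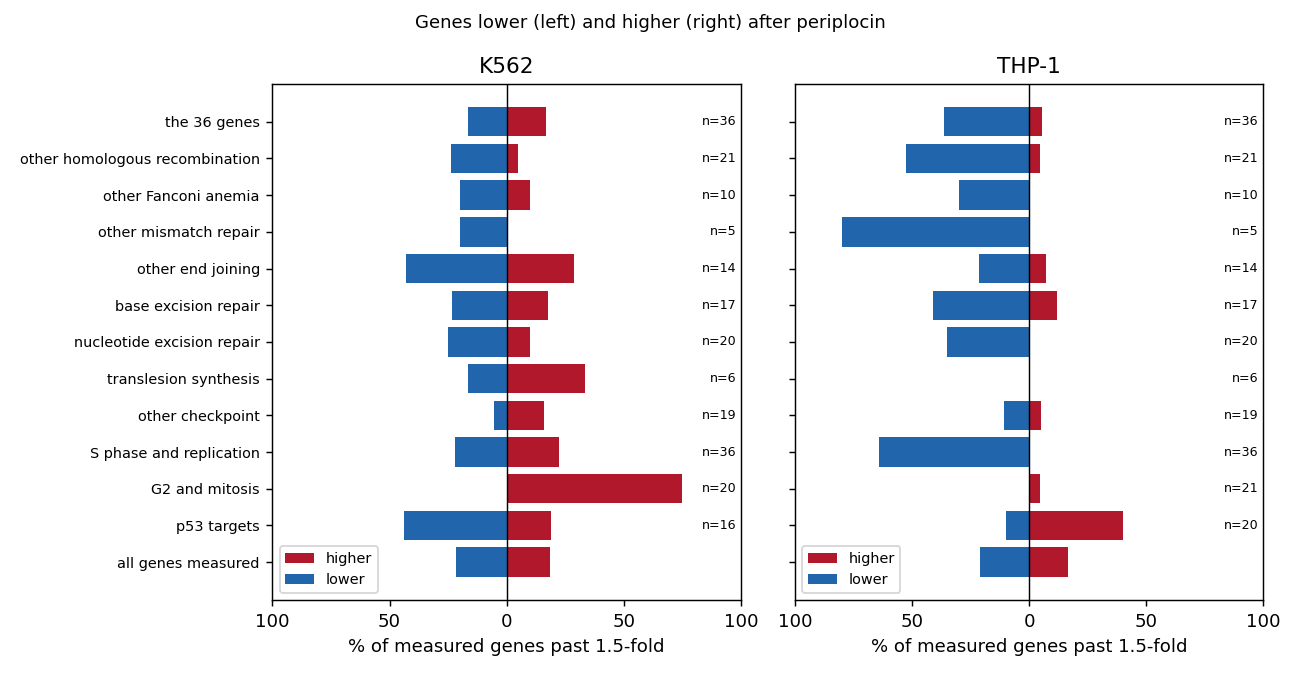
Share of the measured genes of each list that were lower (blue, left) or higher (red, right) past 1.5-fold after periplocin in K562 and THP-1, with n the number of genes measured; the bottom bars are all genes measured. In THP-1 the 36 genes had 13 lower and 2 higher, and in K562 the G2 and mitosis list had 15 of 20 higher.

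Genes of the cell cycle are given by phase, beside 18.5% of all genes higher and 21.5% lower in K562 and 16.8% and 20.8% in THP-1. Of 36 S phase and replication genes, 8 were higher and 8 lower in K562 (median -0.14), while 23 were lower and none higher in THP-1 (median -0.74). RRM2, a ribonucleotide reductase subunit, had log2 ratios of -1.55 in K562 and -1.92 in THP-1. Of the G2 and mitosis genes, 15 of 20 measured were higher in K562 (median 1.11) and 1 of 21 in THP-1 (median 0.08), with PLK1 at 1.87 in K562. The part of these cell cycle values, of the higher erythroid markers in K562 periplocin, and of the monocytic markers that moved in either line, in the values of the 36 genes was not tested.

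Target genes of p53, the factor that ATM and CHEK2 signaling stabilizes and which is known to be inactivated in both lines, had medians of opposite sign in the lines. In K562, 7 of 16 measured were lower and 3 higher past 1.5-fold (median -0.48), beside 21.5% and 18.5% of all genes, with SESN2 from 6525 to 1556 counts (-2.09). In THP-1, 8 of 20 were higher and 2 lower (median 0.43), beside 16.8% and 20.8% of all genes, with CDKN1A, the CDK inhibitor p21, from 500 to 2308 counts (2.44), while in K562 it went from 825 to 386 (-1.12). TP53INP1 and BTG2 were higher in both, TP53INP1 at 1.44 in K562 and 2.07 in THP-1, and BTG2 at 1.12 and 1.91. With single libraries this contrast was not tested.

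Some of the 36 genes overlap others, and the library kit named in the labels does not mark strand. The representative transcripts of RAD54L, FANCA, FANCI, FANCL, MSH6, TP53BP1 and ATM share exon bases with a gene on the opposite strand, in amounts from 0.867% of the ATM transcript to 26.6% of the FANCL transcript. Of the RAD50 transcript, 90.6% is shared with a read-through gene (ENSG00000283782) on the same strand, which had 0, 207, 119 and 364 counts in the 4 libraries. With these counts added, the log2 ratio of RAD50 would be -0.32 rather than -0.44 in K562 and -0.12 rather than -0.33 in THP-1. RAD51D shares 27.7% of its transcript with a read-through gene (ENSG00000267618), which had at most 2 counts in any library, and XRCC1 shares 7.99% with a gene on its own strand. Across the 36 genes, the log2 ratio and log2 transcript length had a Spearman correlation of 0.0808 in K562 and 0.314 in THP-1, and across all genes of 0.0250 and 0.117.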

How the data were processed

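Poly-A paired-end libraries were sequenced by a company, which also filtered the reads. The authors deposited an expected count per gene and library, an estimate that need not be whole, without normalization, and 87.4% to 88.3% of the values are exactly whole, with no tolerance. The submitters' processing notes name hg38, HISAT2 and StringTie 1.3.1 with no roles, and the counting program is not given in the sources used here. The methods name the T7 platform and the labels an Illumina instrument. Of 20348 genes, 20310 had a symbol and 20118 were in GENCODE release 29. The table holds 0 unused columns.

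Expected counts were rounded. TMM-scaled library sizes were computed over the pair of each line (edgeR 4.0.16, R 4.3.3). The log2 ratio used a prior count of 0.125, and its 95% interval was the exact conditional binomial (Clopper-Pearson) one, which covers counting error only. Differences between lines had normal intervals from the 4 counts. CPM used TMM over the 4 libraries. A gene was measured when its mean reached 1 CPM. With 1 library per condition no p was computed within a line. The fit over 4 libraries kept genes that reached 10 counts in 2 or more libraries and used edgeR's quasi-likelihood test, with DESeq2 1.42.0 as the alternative, in which 1844 genes had no adjusted p. Its common biological coefficient of variation was 0.317. The methods were tested on simulated data with less spread between libraries than this coefficient. Those simulations therefore do not show how the methods perform at the spread of these data.

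The 36 genes, their 6 classes and the other lists were chosen with earlier results of these data known. Genes named with their values are those past 1.5-fold in either line, 8 hub genes, and, from each other list, up to 3 called genes per line with the largest ratios. Further values of the 36 are given as log2 ratios. Alternatives were other scalings, filters, prior counts and assumed dispersions of 0.04 and 0.16. Motif searches used Python 3.11.15. Other assays of the study were not analysed here. Some genes of the lists are not reported here by name.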

Additional observations from a re-analysis of the deposited data

Results flagged for a closer look

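WRN passed 1.5-fold in opposite directions in the lines, with a difference of 1.68 between the log2 ratios of K562 and THP-1. It had 71.1 CPM with DMSO and 134 with periplocin in K562, and 86.2 and 50.6 in THP-1. Of all 10779 genes measured in both lines, 427 passed 1.5-fold in opposite directions, so a gene of this kind among 36 is near the background. With 1 library per condition the difference was not tested.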

How the results depend on the processing

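The labels give no replicate numbers, and the pairing of DMSO with periplocin within a line is held by the line term of the fit over 4 libraries. The counts below are of the 36 genes. The shares of all genes under the other scalings and assumed dispersions are not given, so these counts cannot be read as particular to the 36. With an assumed negative binomial dispersion of 0.16 between replicates in the interval, K562 had 1 gene higher and 1 lower past 1.5-fold, 2 in all instead of 12, and past 2-fold 1 lower and 2 in all instead of 3 and 4. With the same dispersion THP-1 had 0 genes higher, 0 lower and 0 in all past 1.5-fold and 0 lower and 0 in all past 2-fold. With a dispersion of 0.04, THP-1 had 1 higher and 5 lower, or 6 in all instead of 15, past 1.5-fold. Total counts, with or without mitochondrially encoded genes, gave 4 genes past 2-fold in THP-1, all 4 lower, instead of 2. Total counts gave 10 genes lower in THP-1 DMSO than in K562 DMSO past 1.5-fold instead of 4, and a median log2 ratio of 0.018 instead of 0.14. DESeq2 gave 1 gene with an adjusted p under 0.05 over both lines, where edgeR's quasi-likelihood test gave 0. Of 160 alternatives of counts and medians 140 stayed near the value given, and of 384 for single genes 382 did, with none changing direction among called values. Many of these could not have moved. An assumed dispersion or another filter leaves the log2 ratio of a gene as it was, and all 36 genes pass every filter used. These tallies are therefore no measure of how firm the calls are. Mitochondrially encoded genes held 5.62% of the counts with DMSO and 2.07% with periplocin in K562, and 5.24% and 3.92% in THP-1. The lowest count of the 36 was 113, so depth limits them little, and no spread between replicates could be measured.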
